A study of Gallus gallus with 2 samples.

Results

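The globin genes of a chicken red cell precursor line were examined together with the genes that lie around them on chromosomes 14 and 1. The members were the 5 rows of the deposited gene table with the symbols HBAA, HBAD, HBZ, HBG2 and HBE, and the 22 other rows whose listed start to end fell wholly or partly within 100 kb of one of them. These 27 rows, 10 in the alpha globin domain and 17 in the chromosome 1 domain, were drawn from 16464 rows analysed. Position and symbol chose them by a rule that used no measured value, though earlier results of these data were known when it was set. Total RNA came from 6C2, a transformed chicken erythroleukemia line that the labels describe as cycling and held at the stage of the erythroid colony-forming unit, a late progenitor before the red cell matures. The series held 1 group of 2 samples with no treatment given, called replicate 1 and replicate 2 here, with 40064443 and 30668939 reads in the table. Nothing in the labels tells whether each was grown as its own culture, and the SD between them may reflect technical variation alone.

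Hemoglobin is a tetramer of a pair of alpha-type and a pair of beta-type globin chains, each carrying heme. In chicken the alpha-type genes and the beta-type genes sit in separate clusters on different chromosomes, and each cluster is read by embryonic and adult stages of red cells in a different mix. Globin transcription rises steeply when progenitors mature, under control of distant enhancers bound by GATA factors and their partners. In the alpha cluster a major enhancer lies within an intron of the neighbouring gene NPRL3. In the beta cluster, work in 6C2 and other chicken cells described an insulator bound by CTCF between the globin genes and the folate receptor gene, and olfactory receptor genes flank the cluster.

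The line's label was checked first against markers. Of 13 erythroid markers listed, 7 had a row under their symbol, and all 7 reached an RPKM of 1 in both samples, the level called detected here (RPKM being the read count scaled to model length and library depth). Over all rows analysed, which include rows without a symbol, 52.6% were detected. One of the 7 was HBAA itself. The others, by mean RPKM, were TFRC at 281, H1F0 at 274, GFI1B at 68.1, KEL at 64.3, LMO2 at 52.6 and CA2 at 24.0. EPOR, GATA1, KLF1, TAL1, ALAS2 and SLC4A1 were not analysed here. Among markers of other cells, 1 of 4 for T cells (CD3E, at 2.42 and 2.91 RPKM), 0 of 3 for B cells, 0 of 3 for macrophages and 2 of 2 for thrombocytes were detected. The thrombocyte markers were ITGB3, at 3.98 and 5.45 RPKM, and GP9, at 6.22 and 5.77, and ITGA2B was not analysed here. In bulk RNA, few cells with much of a transcript and many cells with little of it cannot be told apart.

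Alpha globin genes were transcribed and ranked steeply, HBAA far above HBAD and HBAD above HBZ, whereas the chromosome 1 globin rows were at or near 0 reads. HBAA, which encodes the main adult alpha chain (ENSGALG00000007468, chromosome 14, 12729704 to 12730496, plus strand), had 23092 reads in replicate 1 and 20445 in replicate 2. Its level was 1082.86 and 1252.17 RPKM, or 1168 ± 119.7 (SD, n = 2). HBAD, the alpha-D chain gene that serves both embryonic and adult red cells (ENSGALG00000007463, 12726667 to 12727592, plus strand), had 1645 and 1221 reads, or 77.86 and 75.48 RPKM. The embryonic alpha-type gene HBZ (ENSGALG00000023740, 12722493 to 12724596, plus strand) had 307 and 316 reads, or 12.02 and 16.16 RPKM. No level of one of these 3 genes overlapped that of another in the 2 samples. Coordinates are those deposited, with no build stated in the sources used here.

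The ratios between these genes moved more between the samples than the order did. HBAA was 13.9 times HBAD in RPKM in replicate 1 and 16.6 times in replicate 2. Against HBZ it was 90.1 and 77.5 times as high, and HBAD was 6.48 and 4.67 times HBZ. Of the summed RPKM of the 3 genes, HBAA made up 92.3% and 93.2%, HBAD 6.64% and 5.62%, and HBZ 1.02% and 1.20%. The listed models were of like length, 537 bp for HBAA, 532 bp for HBAD and 643 bp for HBZ, so plain reads gave nearly the same ratio of HBAA to HBAD, 14.04 and 16.7. Together the 3 genes took 0.0625% of all reads in replicate 1 and 0.0717% in replicate 2. Of reads outside small RNA and mitochondrial rows, their share was 0.101% and 0.118%.

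Rows were ranked by mean RPKM if their symbol did not start with "GGA." or "LOC" and their model was at least 200 bp. Rows without a symbol, small RNA and mitochondrial rows were left out of this ranking. HBAA ranked 50 of these 12262 rows. Its closest rows in level, by the difference in log2(mean RPKM + 1) over the 2 samples, were the translation factor genes EEF1B2 at 1225.99 and 1121.87 RPKM and EIF4A2 at 1278.19 and 1154.25 above it, and the ribosomal protein genes RPL14 at 1205.05 and 1085.84 and RPL31 at 1337.78 and 929.12 below it. All 4 had overlapping ranges with HBAA, so their order is not settled by these samples. HBAD ranked 703, between CLASP2 and IFNGR1 on the upper side and AGPS and SSU72 on the lower. HBZ ranked 3606, level with MAPK8, with PDP1 next above and RBBP5 and MRPL20 next below. On chromosome 14, HBAA ranked 3 of 466 rows, HBAD 15 and HBZ 88.

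**Figure D1:**
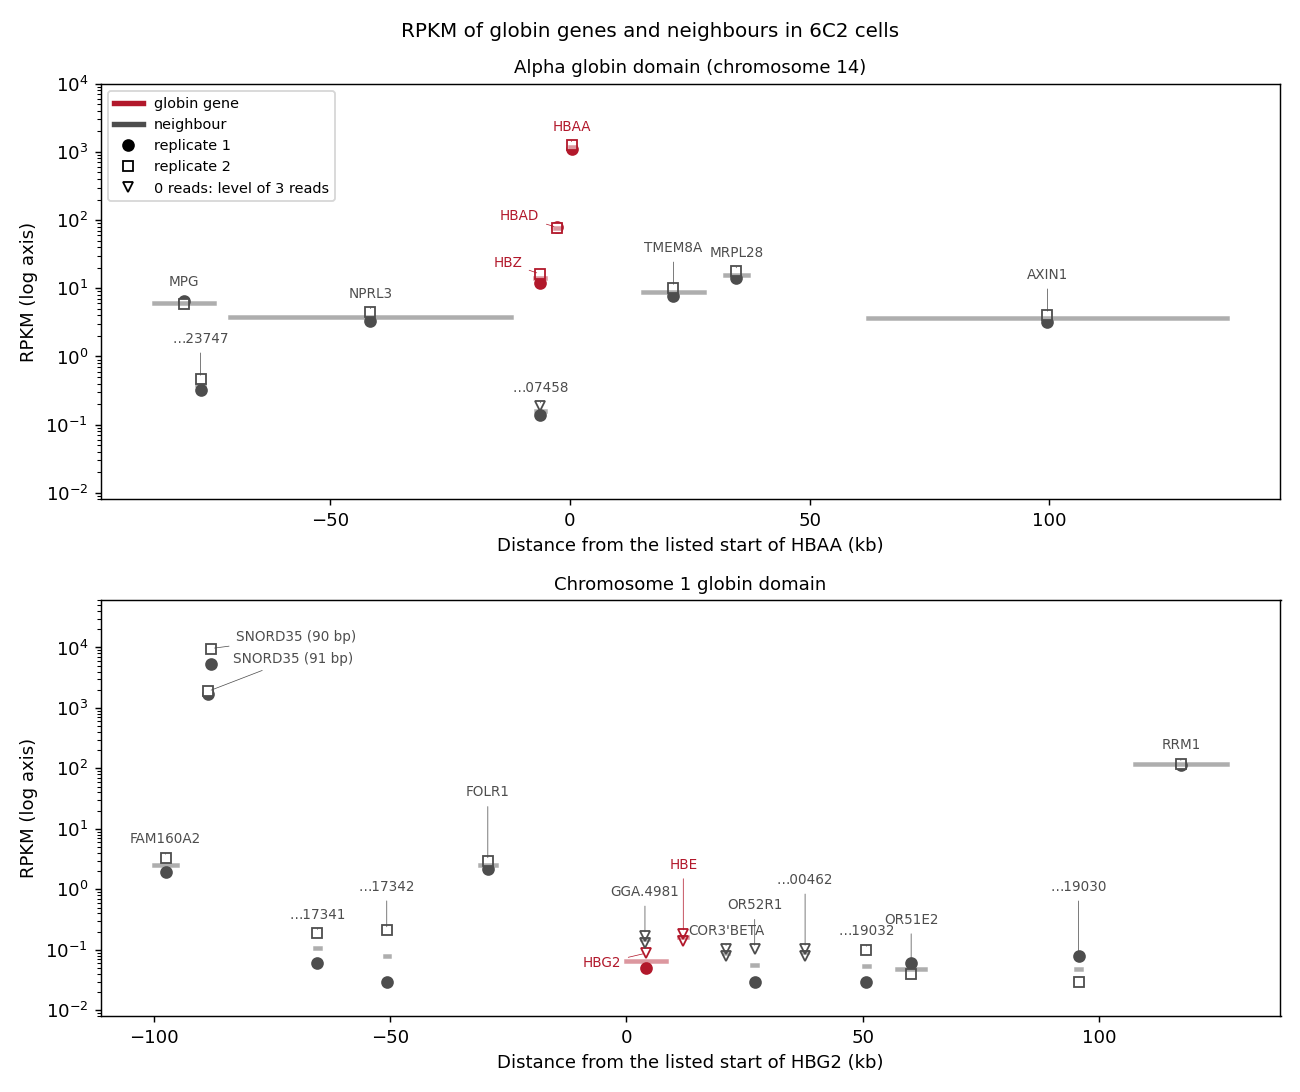
RPKM on a log axis against distance in kb, from the listed start of HBAA (upper panel) and of HBG2 (lower panel), for 26 of the 27 rows, with globin genes in red, neighbours in grey, filled circles for replicate 1, open squares for replicate 2, and open triangles at the level of 3 reads where a row had 0 reads. Horizontal bars span each model at the geometric mean of its plotted points; HBAA stands at 1082.86 and 1252.17 RPKM while its detected neighbours lie between 3.20 and 17.67, and the rows between FOLR1 and RRM1 lie at the bottom.

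Around the alpha globins, every neighbour with a symbol was transcribed at a modest level, and none came near HBAA. NPRL3, a subunit of the GATOR1 complex that restrains mTORC1, lies upstream on the minus strand (12658830 to 12717517), and its end is 4.98 kb from the start of HBZ. It had 290 and 302 reads, or 3.27 and 4.45 RPKM. MPG, a DNA glycosylase of base excision repair, lies farther upstream (12643118 to 12655546) and stood at 6.52 and 5.79 RPKM. On the other side, 14.5 kb past HBAA, TMEM8A, a membrane protein gene (12744994 to 12757648), stood at 7.58 and 10.11. MRPL28, a protein of the large mitochondrial ribosomal subunit (12762060 to 12766790), was the highest neighbour in this domain, at 13.91 and 17.67. AXIN1, a scaffold of the complex that degrades beta-catenin (12791882 to 12866694), stood at 3.20 and 4.08. Only NPRL3 and AXIN1 overlapped each other among these 5 levels.

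Rows without a symbol in this domain were low. ENSGALG00000023747 lies within the span of MPG on the opposite strand (12651983 to 12653549) and had 7 and 8 reads, or 0.32 and 0.47 RPKM. ENSGALG00000007458 lies within the span of HBZ on the opposite strand (12722594 to 12724595) and had 3 reads in replicate 1 and 0 in replicate 2, where 0 reads allow up to 0.185 RPKM. HBZ, listed over nearly the same span, had 307 and 316 reads. Across the table, 705 rows that are no small RNA lay wholly within a model on the opposite strand and within none on their own. Of these, 25.7% were detected, and their median was 0.125 RPKM. No source used here states whether reads were counted by strand. How reads over the shared span were assigned to HBZ or to the row opposite it is therefore not known.

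Set against these neighbours, HBAA stood apart by both counts and RPKM, HBAD by less, and HBZ not from the highest of them. HBAA was 77.8 times MRPL28 in RPKM in replicate 1 and 70.9 times in replicate 2, a mean of 74.4 ± 4.94 (SD, n = 2). In plain reads, which favour longer models, that ratio was 26.2 and 23.9. HBAD was 5.60 and 4.27 times MRPL28 in RPKM and 1.87 and 1.42 times in reads. HBZ was 0.864 and 0.915 times MRPL28 in RPKM, below it in both samples although the RPKM ranges of these genes over the samples overlapped. In reads HBZ was 0.348 and 0.369 times MRPL28, and the ranges did not overlap. Against the median of the 7 neighbours, which was NPRL3 in both samples, HBAA was 331 and 281 times as high in RPKM, HBAD 23.8 and 17.0 times and HBZ 3.68 and 3.63 times. In plain reads the same ratios were 79.6 and 67.7 for HBAA, 5.67 and 4.04 for HBAD and 1.06 and 1.05 for HBZ. With neighbours taken within 50 kb only, the mean ratios in RPKM were 186 for HBAA, 12.4 for HBAD and 2.22 for HBZ, in place of 306, 20.4 and 3.65. The 3 globins held 90.6% and 89.7% of the 27656 and 24502 reads of the domain, from models summing to 1712 bp of 13190 bp. The series has no second group, so none of these ratios carries a test between conditions.

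**Figure D2:**
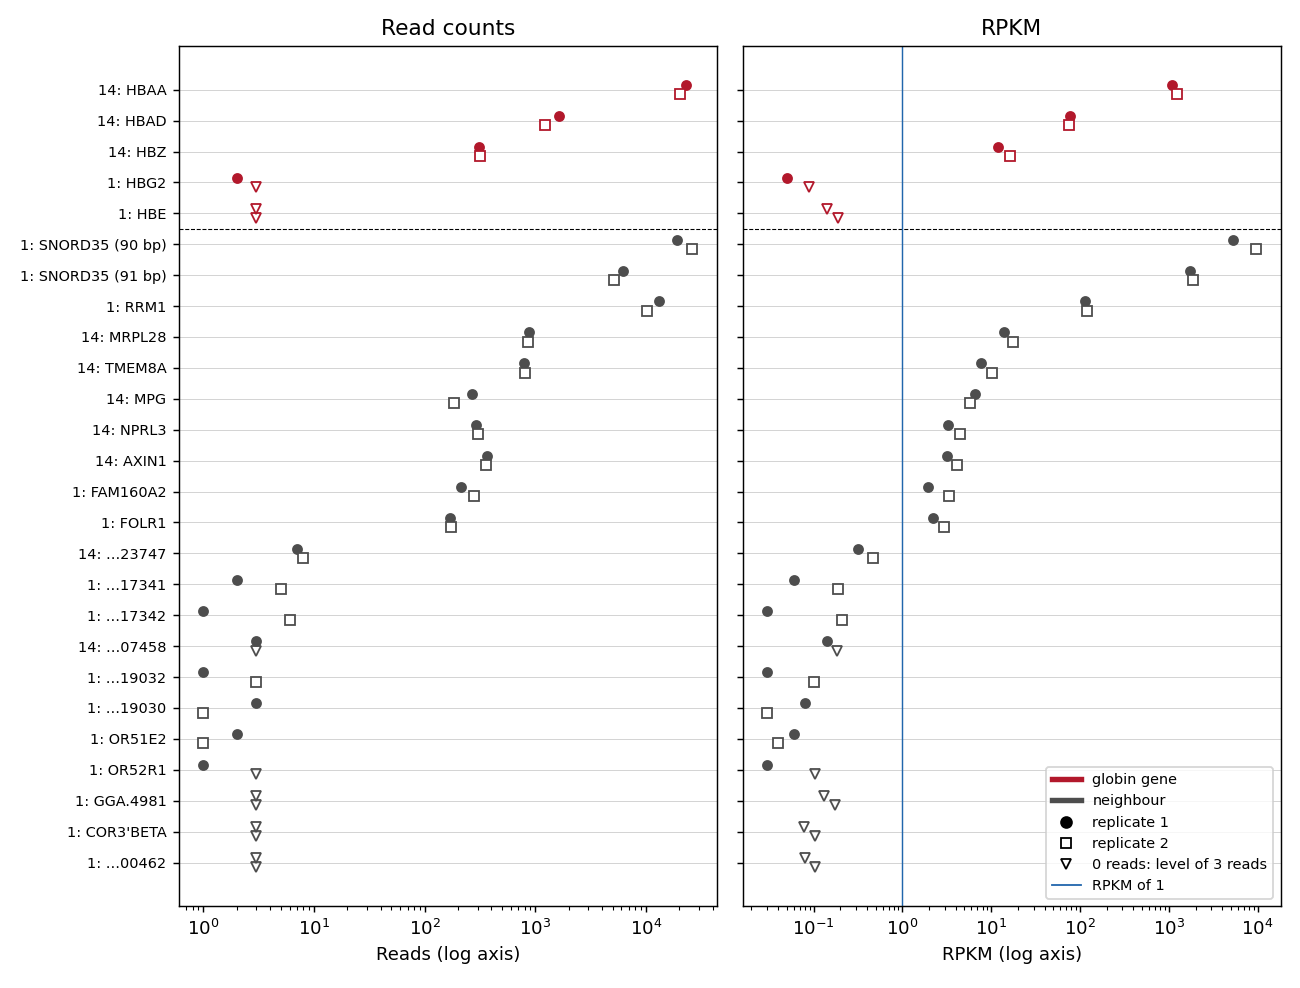
Reads (left) and RPKM (right), both on log axes, for 26 of the 27 rows, with globins above the dashed line and neighbours below it, each set ordered by mean RPKM, and the chromosome before each name. Filled circles are replicate 1, open squares replicate 2, and open triangles mark 0 reads at the level of 3 reads; HBAA has 23092 and 20445 reads, next to 881 and 857 for MRPL28, its highest neighbour in RPKM on chromosome 14.

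To place these values, each row with at least 3 other rows within 100 kb on a placed chromosome was set against the median of those rows in log2(RPKM + 1). Over 13968 such rows the median difference was 0, and the 5th and 95th percentiles were -3.54 and 5.12. Unlike the neighbours in the ratios above, the rows around a globin here include the other globins of its domain. HBAA lay 7.35 above the median of the rows around it, at the 98.3rd percentile, and ranked 232. HBAD lay 3.44 above, at the 87.1st percentile, and HBZ 1.08 above, at the 65.9th. Among the 12974 such rows of at least 200 bp that are no small RNA, HBAA ranked 91. HBG2 and HBE lay 0.09 below the median of the rows around them, at the 45.2nd and 45.3rd percentile, amid rows that were themselves near 0. HBAA was the highest row of its own window, as were RRM1 and the shorter SNORD35 row on chromosome 1. These 3 of 27 compare with 12.6% of all rows ranked. These ranks describe genes within the same libraries, which are not independent replicates.

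**Figure D3:**
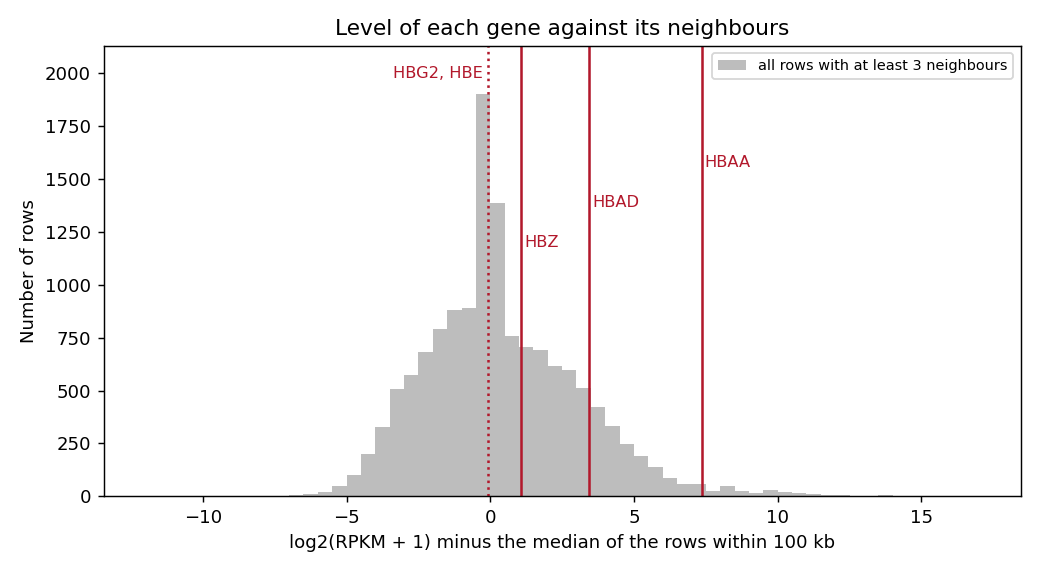
Histogram of log2(RPKM + 1) of each row minus the median of the rows within 100 kb, for 13968 rows (x axis, log2 units; y axis, number of rows), with lines at the globin genes. HBAA at 7.35 lies in the upper tail, HBAD at 3.44 and HBZ at 1.08 lie within the bulk, and HBG2 and HBE lie at -0.09.

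In the chromosome 1 domain the globin rows had almost no reads. HBG2 (ENSGALG00000017345, chromosome 1, 199433573 to 199442026, plus strand) had 2 reads in replicate 1 and 0 in replicate 2, or 0.05 and 0 RPKM. The 95% Poisson interval of those 2 reads runs from 0.242 to 7.22 reads, and the 0 reads of replicate 2 allow up to 0.0886 RPKM. HBE, a beta-type globin gene of embryonic red cells (ENSGALG00000017347, 199444794 to 199446420, plus strand), had no reads at all, and 0 reads set upper limits of 0.143 RPKM for replicate 1 and 0.187 for replicate 2. These limits are the RPKM of 3 reads in each library and, like the interval, cover counting error only. The 95% Poisson interval of 0 reads reaches farther, to 3.69 reads, and would give lower folds than those that follow. By the limits of 3 reads, HBAA was at least 7583-fold higher than HBE in replicate 1 and at least 6713-fold in replicate 2. Against HBG2 it was at least 14125-fold higher in replicate 2, and in replicate 1 the ratio was 23931 with a counting interval of 6625 to 197602.

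The name HBG2 calls for care in this table. RefSeq's gene table of assembly GRCg7b lists HBG2 as a synonym of HBBA, the adult beta chain gene, and places HBBR, HBE1 and HBBA in that order between FOLR1 and HBE. In the rows analysed here, HBG2 and GGA.4981 lay between FOLR1 and HBE. The HBG2 model spans 8.45 kb with a listed length of 1113 bp, and GGA.4981 (199436878 to 199438103, same strand) lies wholly inside that span with 0 reads in both samples, allowing up to 0.132 and 0.172 RPKM. How reads of the 3 RefSeq genes would fall on these 2 models is not known from the files, and no source used here states how reads matching overlapping models were treated. Across the table, 242 rows that are no small RNA lay within another model on the same strand. Of these, 46.3% were detected, with a median of 0.673 RPKM, beside 52.6% and 1.83 over all rows. Whether the overlap affected the reads of GGA.4981 was not tested. The values are therefore those of the listed rows, and not of each beta-type gene.

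On the HBE side of these globins, the rows up to RRM1 had almost no reads. FOLR1, the next row on the other side, was the nearest one detected. Between FOLR1 and RRM1, over 135 kb, the 9 rows HBG2, GGA.4981, HBE, COR3'BETA, OR52R1, ENSGALG00000000462, ENSGALG00000019032, OR51E2 and ENSGALG00000019030 together held 9 reads in replicate 1 and 5 in replicate 2. None of them had more than 3 reads in a sample, and 4 had 0 in both. COR3'BETA, a chicken olfactory receptor gene, was one of those 4, with limits of 0.0788 and 0.103 RPKM. The olfactory receptor genes OR52R1 and OR51E2 had 1 and 0 reads and 2 and 1 reads. At this depth, levels under about 0.1 RPKM could not be told from 0 for models of this length. On the other side of FOLR1, ENSGALG00000017341 had 2 and 5 reads and ENSGALG00000017342 had 1 and 6.

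FOLR1, a folate receptor gene on the minus strand (199402554 to 199405905), was detected between these stretches, with 170 and 172 reads, or 2.20 and 2.91 RPKM. Its end lies 27.7 kb from the start of HBG2. That level lay at the 52.4th percentile of all rows analysed, and HBG2, the next row towards HBE, had 2 and 0 reads. FAM160A2, a gene of endosomal transport at the far edge (199333640 to 199338406), stood at 1.93 and 3.33.

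Some rows farther out in the window stood at high levels. RRM1, the large subunit of ribonucleotide reductase, which makes deoxynucleotides for DNA synthesis (199541182 to 199560671, minus strand), stood at 115.08 and 118.77 RPKM, 94.8 kb past HBE. HBAA was 9.41 and 10.5 times RRM1 in RPKM. The 2 SNORD35 rows are C/D box small nucleolar RNAs, a class that guides methylation of ribosomal RNA, and lie on the minus strand on the FOLR1 side. The 91 bp row (199344903 to 199344994) stood at 1717.34 and 1875.40 RPKM, and the 90 bp row (199345583 to 199345673) at 5346.92 and 9597.38. Both lay above HBAA in both samples, on models far shorter than that of HBAA. In reads, the 90 bp row had 19110 and 26263 and the 91 bp row 6206 and 5189, next to 23092 and 20445 for HBAA.

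Detection over the 27 rows lay near that of the whole table, but it differed between the domains. Of the 27 rows, 14 were detected, or 51.9%, beside 52.6% of all rows analysed. In the alpha domain 8 of 10 rows were detected, or 80%, beside 57.7% of all rows on chromosome 14. In the chromosome 1 domain 6 of 17 were detected, or 35.3%, beside 51.1% of all rows on that chromosome. The difference between the domains rests on few rows and was not tested. All 3 alpha globins and 5 of 7 alpha neighbours were detected, against 0 of 2 globins and 6 of 15 neighbours on chromosome 1. The median of the neighbours was 3.86 RPKM in the alpha domain and 0.12 in the chromosome 1 domain, beside 1.83 over all rows. The lowest detected row was FOLR1 by mean RPKM, at 2.56, and the highest row not detected was ENSGALG00000023747 at 0.395, and no member had a mean between these values. Just inside the 100 kb limit lay FAM160A2, 95.2 kb from HBG2, and RRM1, and just outside it lay the cation channel gene CNGA4, 102.8 kb before HBG2 at 0.11 and 0.10 RPKM, and RHBDF1, 118.4 kb before HBZ at 1.70 and 2.40.

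The genes known to flank alpha globins in vertebrates were listed as well. Of 13 genes, 11 had a row, and 9 were detected, or 81.8%, beside 52.6% of all rows, with a median of 3.86 RPKM beside 1.83. These genes all carry a symbol, whereas all rows include rows without one. Of the neighbour rows of both domains, 11 of 15 with a symbol were detected and 0 of 7 without. All 5 of the listed genes inside the 100 kb were detected, and these are the neighbours described above. Outside it 4 of 6 were detected, or 66.7%, so the count beyond the window rests on few genes. There, ITFG3, also known as FAM234A, stood at 8.94 and 11.14, LUC7L, a splicing factor gene, at 4.03 and 5.79, and POLR3K, a subunit of RNA polymerase III, at 2.92 and 4.27. RGS11, which accelerates GTP hydrolysis by G proteins, had 2 and 1 reads, and PDIA2, a protein disulfide isomerase gene that lies elsewhere on chromosome 14 in this table, had 1 and 1. HBAD and HBAA lay above every one of these 11 genes in both samples.

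Genes of factors that act on globin genes stood at very different RNA levels. Of 30 listed, 22 had a row and 20 were detected, or 90.9%, with a median of 11.02 RPKM, beside 52.6% and 1.83 over all rows. Here too the listed genes all carry a symbol, whereas all rows include rows without one. The list was drawn up with earlier results of these data known. BACH1, a repressor of globin genes that heme releases from DNA, was the highest at 105.33 and 97.61. By mean RPKM it was followed by MYB, a progenitor factor linked to fetal globin levels in humans, at 64.73 and 78.54. Then came GFI1B, a repressor that acts within the red cell lineage, at 62.08 and 74.17, and NFE2L2 at 59.32 and 61.20. LMO2, a bridging protein of GATA complexes, stood at 54.37 and 50.91, and GATA2 at 40.19 and 52.57. The ranges of MYB and GFI1B overlapped, as did those of LMO2 and GATA2, so the order within each pair is not settled. All 6 lay below HBAA in both samples. BACH1 lay above HBAD in both samples. GFI1B, NFE2L2, LMO2 and GATA2 lay below HBAD in both, and the range of MYB spanned that of HBAD.

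Every other listed factor with a row lay below these 6 in both samples. YY1, a zinc finger factor, came next at 27.32 and 28.33, and TCF3, an E protein that pairs with TAL1, stood at 12.86 and 17.25. NR2C1 and NR2C2, nuclear receptors that repress embryonic globin genes in mouse, stood at 6.93 and 8.82 and at 11.96 and 14.53. ZFPM1, a cofactor of GATA1, stood at 2.62 and 4.38, the corepressor gene CBFA2T3 at 3.12 and 6.03, and RUNX1, a factor of blood stem cells, at 3.39 and 4.37. LDB1, which holds enhancers and globin promoters together in mouse, stood at 4.00 and 7.14, and CTCF at 12.75 and 11.26. The small MAF genes MAFK and MAFG, partners of BACH1 and NF-E2 type factors, stood at 8.91 and 11.17 and at 2.86 and 5.15. BCL11A and SOX6, which silence fetal globin genes in humans, stood at 2.33 and 2.69 and at 4.32 and 4.08. EIF2AK1, the kinase that ties globin translation to heme supply, stood at 14.07 and 14.69. KLF3, at 0.74 and 0.81, and NR2F2, at 0.58 and 0.91, were under the threshold. GATA1, KLF1, TAL1, LYL1, NFE2, ZBTB7A, USF1 and USF2 were not analysed here.

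Replicates 1 and 2 were not identical for globins and neighbours. Of the 14 members with at least 100 reads in both, 2 were at least 1.5-fold apart, beside 5.83% of 7788 rows. These were the 90 bp SNORD35 row, at 1.79 times its replicate 1 level in replicate 2, and FAM160A2, at 1.73 times. In log2 of replicate 2 over replicate 1, HBAA was at 0.21, HBAD at -0.04 and HBZ at 0.43. All rows had a median of 0.07 and an SD of 0.27, so the globin values lay within 1.5 SD of it. In 11 of the 14, replicate 2 was higher, beside 62.2% of all such rows. Each of these is a difference between single libraries and has no replicate of its own.

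**Figure D4:**
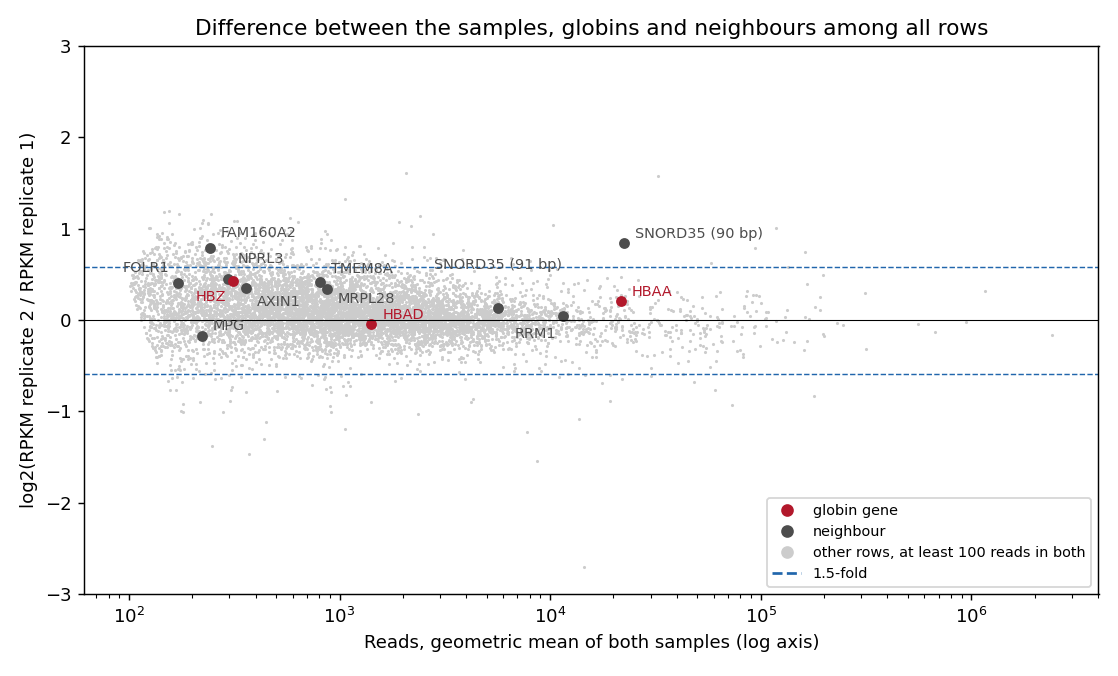
Log2 of RPKM in replicate 2 over replicate 1 (y axis) against the geometric mean of reads (x axis, log), for 7787 rows with at least 100 reads in both samples in light grey, globins in red and neighbours in dark grey, with dashed lines at 1.5-fold. HBAA at 0.21, HBAD at -0.04 and HBZ at 0.43 lie inside the dashed lines, and FAM160A2 and the 90 bp SNORD35 row lie above them.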

How the data were processed

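Total RNA of 2 samples of 6C2 cells was depleted of ribosomal RNA, fragmented with RNase III and made into SOLiD libraries, per the labels' protocols, with no selection for poly(A) tails described. The authors deposited 1 table with read counts per gene and, beside them, RPKM values, per the file headers. Every RPKM value was recomputed from count, listed length and 1 total per sample within 0.006 plus 0.2%. These totals were themselves fitted from the deposited RPKM values, at 39711300 for replicate 1 and 30405300 for replicate 2. Both are lower than the reads summed over the rows, 40064443 and 30668939, and the reason was not tested. Aligner, counting tool, build and annotation: not given in the sources used here. Small RNAs held 32.2% and 33.7% of the reads, which lowers the RPKM of all other genes.

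Of 17934 rows, the 1470 on random, unplaced or linkage-group contigs were left out, all with an empty symbol cell and 0 reads in both samples; rows on assembled chromosomes stayed in, also those without a symbol or reads. With the 1470 rows kept in, 48.3% of all rows were detected in place of 52.6%. Members were taken by symbol and by listed position, and gene lists were matched by symbol. The members and lists were chosen with earlier results of these data known. Named were all globins, the neighbours other than the row left unreported, the rows closest in level and the listed regulators. With 1 group there was no test; values are given per sample, as mean ± SD (n = 2), or as ranks. The counts of the samples differed by more than sampling noise (over 11892 rows with at least 10 reads, chi-square per degree of freedom was 48.6). That difference does not tell whether they were separate cultures. Both samples were kept. Local differences were checked on simulated data. Alternatives were other windows, thresholds, pseudocounts, scalings and each sample alone. Python 3.11.15, numpy 2.4.6, pandas 2.3.3, scipy 1.17.1, matplotlib 3.10.9 and, for TMM factors of the counts, edgeR 4.0.16 were used. Values of 1 neighbour row are not reported here, though it is counted among the members. Promoter and protein sequences were not used here.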

Additional observations from a re-analysis of the deposited data

How the results depend on the processing

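HBAA's level of 1168 RPKM was 1887 with library totals taken without small RNA and mitochondrial rows and 362 when RPKM was rescaled to a common sum per sample, scale changes that leave ratios within a sample as they were; without either replicate it was 1083 to 1252. The 14 detected rows became 7 of 16 with a window of 50 kb and 27 of 52 with 200 kb, by construction, and stayed between 12 and 14 under the other thresholds and with either sample alone. HBAA over its highest alpha neighbour, 74.4 in RPKM, was 25.03 in reads, since the MRPL28 model is longer, and 70.9 to 77.8 without either replicate. The percentile of HBAA against the rows around it, 98.3, was 97.5 with 50 kb, 98.6 with 200 kb and 96.8 with a pseudocount of 0.1. Without either replicate it was 98.2 to 98.5. The percentile of HBAD, 87.1, moved more, from 81.4 (50 kb) to 90.9 (surrounding rows of mean RPKM at least 0.1 only). That of HBZ, 65.9, ranged from 57.1 (50 kb) to 71.9 (200 kb). The log2 ratio of the samples for RRM1, 0.05, turned to -0.044 with median-of-ratios scaling and -0.0587 with TMM, which shift all rows by 0.09 and 0.10; HBAA kept its sign, at 0.12 and 0.11, and 10 in place of 11 of the 14 members were higher in replicate 2. HBAA over the median alpha neighbour, 306, was 73.7 in reads, 186 with 50 kb, 191 over neighbours with a symbol and 339 with 200 kb, and 281 to 331 without either replicate. HBAD, 20.4, ranged from 4.86 (reads) to 23.8 (replicate 1 alone), with 12.4 at 50 kb and 12.5 over neighbours with a symbol. HBZ, 3.65, ranged from 1.05 (reads) to 4.04 (200 kb), with 2.22 at 50 kb and 2.32 over neighbours with a symbol. No paired analysis was possible because the series has 1 group. Depth limits rows with few reads: a single read is the whole signal of OR52R1.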
